A study of Mus musculus with 12 samples.

Results

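The mitochondrial ribosomal proteins described here are the protein-coding genes whose mouse symbols begin with Mrpl or Mrps followed by a number, leaving out symbols that mark pseudogenes. The rule uses names only and no measured value. It finds 78 genes, 49 named Mrpl and 29 named Mrps, among the 54232 rows of the gene count table. Of these, 77 passed the filter on low counts that left 15679 genes for testing. The remaining gene, Mrpl53, had a count of 0 in all 12 libraries.

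Mitochondrial ribosomes translate the few mRNAs that the mitochondrial genome encodes, all for subunits of the oxidative phosphorylation complexes. Their rRNAs come from mitochondrial DNA, whereas every one of their proteins is encoded in the nucleus, made in the cytosol and imported. A naive T cell is small and quiescent, and on activation it grows and builds up mitochondrial mass and mitochondrial translation. By its role each gene was placed in the small subunit (26 genes), which binds the mRNA and decodes it, or the large subunit (51 genes), which joins amino acids and holds the exit tunnel. The large-subunit group includes Mrps18a and Mrps30, whose proteins sit in that subunit despite their names. Mrps36 was kept apart, since its protein is now known as a component of the 2-oxoglutarate dehydrogenase complex. A further grouping by descent separated 45 genes with a bacterial counterpart from 29 without one.

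The study stimulated naive CD4+ T cells, either WT or labelled as Ddx55 knockouts (KO), on plates coated with antibodies to CD3 at 5 ug/ml and to CD28 at 2.5 ug/ml. Ddx55 is a DEAD-box RNA helicase known for its role in making the large subunit of the cytosolic ribosome. Cells came from mouse spleen and from tissue labelled pLN, and total RNA depleted of rRNA was sequenced after 0, 8 and 24 h. The 6 groups hold 2 libraries each, and the labels give no age, no strain, no kind of Ddx55 allele and no Cre. They do not say whether replicates came from separate animals either, so p-values measure the spread between these libraries, which may be technical. Library totals ran from 16810375 to 19126498 counts, and a tested member had between 145 and 1237 counts in the library where it was lowest. Levels are given in CPM, counts scaled to a common library size with TMM factors. CPM is relative to the other RNA of a library, and no amount of RNA per cell is given here. Rises and falls over time are therefore changes in relative level. In bulk RNA, fewer cells of a type and less RNA per cell cannot be told apart.

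Ddx55 itself lay between 45.3 and 68.8 CPM in the 6 WT libraries and between 14.5 and 19.5 CPM in the 6 KO libraries, so the 2 genotypes did not overlap and the transcript was still counted in every KO library. The 14 T cell identity genes summed to between 4632.2 and 8145.9 CPM in all libraries, and the 6 B cell genes to at most 6.39 CPM, so T cell genes far outweighed B cell genes, as labelled. Markers of granulocytes set the KO libraries apart. The 10 basophil and mast cell genes summed to 173 and 609.7 CPM in KO at 24 h, against 10.3 and 9.36 CPM in WT, where Cma1 was at 0 in both libraries. The 12 neutrophil genes summed to 22.8 and 88.4 CPM in KO at 24 h and to 0.647 and 0.595 CPM in WT, with Elane, Cebpe and Ngp among those at 0 in both WT libraries and above 0 in both KO libraries. Of these lists, 9 of 10 and 5 of 12 genes were higher in KO at 24 h, beside 17.9% of all tested genes. Of the 14 T cell identity genes, 4 were higher at that time too. At 0 h the neutrophil genes summed to 529.9 and 520.0 CPM in KO and to 57.5 and 13.5 CPM in WT. Of the 12, 9 were higher, beside 4.63% of all tested genes. At 8 h the neutrophil genes summed to 21 and 46.9 CPM in KO against 1.87 and 1.23 CPM in WT, and 0 of the 12 were called. Of the 10 basophil and mast cell genes, 3 were called higher at 0 h and 1 at 8 h. The shares of all tested genes were 4.63% and 1.9%. The 6 CD8 T and NK cell genes summed to 153.6 and 78.6 CPM in KO and 50.2 and 40.2 CPM in WT at 0 h. The 6 monocyte and macrophage genes had KO to WT ratios of mean sums of 2.67, 2.52 and 2.55 at 0, 8 and 24 h. At 0 h their sums were 83.9 and 26.6 CPM in KO and 24.9 and 16.5 CPM in WT, so the KO library numbered 1 carried much of that ratio. Of the 6 genes 1, 0 and 1 were called higher at 0, 8 and 24 h, beside 4.63%, 1.9% and 17.9% of all tested genes. Without a call, 2, 2 and 1 of them lay lower in KO. The 5 erythroid genes summed to 188.9 and 94.4 CPM in KO and 274.4 and 83.5 CPM in WT at 0 h. Of those 5, 1 was called higher in KO at 0 h, beside 4.63% of all tested genes. The part of these transcripts in the results below was not tested. KO libraries numbered 1 held fewer basophil counts than those numbered 2 at each time (312 against 799 CPM at 0 h, and 124 against 389.8 CPM at 8 h).

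Among the members, levels differed widely. Compared per kb of exon, the median member stood at 10.2 CPM per kb in WT at 0 h, with quartiles of 6.55 and 16.9, and the highest lay 23.8-fold above the lowest. Averaged over the 12 libraries, the highest were Mrpl52 (68.1 CPM per kb), Mrpl54 (59.2), Mrps21 (50.2), Mrpl2 (49.4) and Mrps23 (44.6). Of these, Mrpl2 lies at the peptidyl transferase centre and Mrps21 is a small-subunit protein with a bacterial counterpart. The lowest detected were Mrps35 (3.75 CPM per kb), Mrps25 (4.37), Mrpl48 (4.41), Mrpl33 (4.70) and Mrps10 (5.58). Long annotated exons lower such a value, since the union of exons ran from 607 to 8631 bases across members.

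The absent member, Mrpl53, belongs with Mrpl10, Mrpl11 and Mrpl12 among proteins placed at or near the stalk that recruits translation factors. Its count of 0 allows a level of up to 0.157 CPM in the deepest library and 0.178 CPM in the shallowest, from 3 counts and for counting error only. Its annotated exons (GRCm38, chr6:83109040-83109939, plus strand) overlap those of Gm42688 on the same strand, which was detected at 0.272 to 2.61 CPM. The sources used here do not state how reads in shared exons were assigned, so the 0 was read as an entry of the table and not as absence of the transcript.

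Sequences just before the start sites of members are shown because the members' levels rose together on stimulation, while their KO effects at 24 h did not all match. RefSeq windows (GRCm38.p6, from 250 bases before to 50 bases after a start) were found for 69 of the 78 members, 75 windows in all. Below are the 250 bases before the start of 5 genes, each 5′ to 3′ on its own strand, with matches to the motifs named next in capitals. Mrpl18 and Mrpl27 had the largest KO effects at 24 h, Mrpl12 and Mrpl17 rose strongly by 8 h, and Mrpl45 rose over both intervals in both genotypes. The positions are chr17:12916092-12916341 for Mrpl18 and chr7:105811088-105811337 for Mrpl17, both on the minus strand. On the plus strand lie chr11:94653541-94653790 for Mrpl27, chr11:120484387-120484636 for Mrpl12 and chr11:97315466-97315715 for Mrpl45.
Mrpl18: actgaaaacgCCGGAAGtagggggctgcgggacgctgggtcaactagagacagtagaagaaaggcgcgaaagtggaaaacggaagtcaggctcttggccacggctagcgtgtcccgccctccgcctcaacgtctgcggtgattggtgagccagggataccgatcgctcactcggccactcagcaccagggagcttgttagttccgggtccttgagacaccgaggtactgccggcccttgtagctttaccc
Mrpl27: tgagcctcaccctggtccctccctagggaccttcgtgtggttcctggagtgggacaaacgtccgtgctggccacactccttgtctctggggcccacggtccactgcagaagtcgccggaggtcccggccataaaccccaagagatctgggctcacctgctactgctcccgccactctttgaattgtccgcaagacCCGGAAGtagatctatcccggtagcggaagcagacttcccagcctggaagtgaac
Mrpl12: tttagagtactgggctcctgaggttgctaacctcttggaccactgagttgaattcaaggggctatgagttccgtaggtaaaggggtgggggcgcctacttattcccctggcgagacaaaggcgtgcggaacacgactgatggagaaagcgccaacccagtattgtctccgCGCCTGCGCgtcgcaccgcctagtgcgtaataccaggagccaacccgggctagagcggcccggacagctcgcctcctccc
Mrpl17: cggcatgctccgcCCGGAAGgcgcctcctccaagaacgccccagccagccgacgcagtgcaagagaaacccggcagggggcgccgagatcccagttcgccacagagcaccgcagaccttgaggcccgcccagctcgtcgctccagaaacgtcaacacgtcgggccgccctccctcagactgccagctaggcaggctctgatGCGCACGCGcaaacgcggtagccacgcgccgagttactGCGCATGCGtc
Mrpl45: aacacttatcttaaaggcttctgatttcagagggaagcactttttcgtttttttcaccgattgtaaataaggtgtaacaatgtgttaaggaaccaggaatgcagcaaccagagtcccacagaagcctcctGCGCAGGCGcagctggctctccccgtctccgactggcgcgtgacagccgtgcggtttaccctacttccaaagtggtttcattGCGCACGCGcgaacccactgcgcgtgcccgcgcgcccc
The motifs searched, on both strands, were CACGTG (the E-box bound by MYC and MAX), CCGGAAG (bound by ETS factors such as GABPA), GCGCANGCG (NRF1) and AAGATGGCG (YY1). Mrpl18 and Mrpl27 each show 1 ETS match, Mrpl12 an NRF1 match, Mrpl45 a pair of NRF1 matches, and Mrpl17 an ETS match and a pair of NRF1 matches.

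Over all member windows, the ETS motif was found in 34.7% of 75, against 8.86% of all 32851 windows in the table and 17.1% of the 13321 windows of tested genes. NRF1 matches were in 21.3% of member windows, against 6.25% of all and 12.6% of those of tested genes. The YY1 motif stood in 10.7%, against 1.4% and 2.87%. For the E-box the share was 9.33% of member windows, against 7.15% of all and 9.82% of those of tested genes. The 7 E-box windows belong to 5 members, since 3 overlapping windows of Mrpl2 hold the same stretch. Counted by gene, the E-box was in 7.25% of the 69 members with a window. It was in 8.09% of all genes with a window and in 11.7% of the tested genes with one. None of the 4 motifs was found in 29 member windows. Matches are letters in a window and do not show binding.

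After 8 h of stimulation most mitochondrial ribosomal protein mRNAs stood at higher CPM in WT cells. Of 77 tested members, 64 were higher at 8 h than at 0 h and 2 were lower, with a median log2 change of 0.89. Among all tested genes, 28.3% were higher and 33.6% lower, with a median of -0.15. The members summed to 2233.4 and 2306.0 CPM at 0 h and to 4271.9 and 3910.4 CPM at 8 h, a ratio of means of 1.80. Both subunits took part, with 22 of 26 small-subunit members higher (median 0.74) and 41 of 50 tested large-subunit members higher (median 0.95).

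The largest rise was that of Mrps6, a small-subunit protein with a bacterial counterpart. It measured 10.7 and 10.4 CPM in WT at 0 h and 100.6 and 80.2 CPM at 8 h, then 58.5 and 54.9 CPM at 24 h. Its log2 change over the first 8 h was 3.10 ± 0.16 (SE, n = 2 per group; edgeR quasi-likelihood test, Benjamini-Hochberg adjusted p = 4.15e-10), an 8.56-fold rise with no overlap between groups. Exons of Mrps6 overlap those of Slc5a3 on the same strand, and the assignment of shared reads is not known.

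Mrpl12, which forms the stalk and is also known to bind the mitochondrial RNA polymerase, measured 16.5 and 15.7 CPM at 0 h and 72.7 and 62.5 CPM at 8 h, a rise of 2.07 ± 0.17 on the log2 scale. Mrpl20, needed early in building the large subunit in bacteria, went from 21.6 and 22.2 CPM to 89.98 and 77.6 CPM. Mrpl17, near the tunnel exit, went from 17.1 and 20.3 CPM to 75.9 and 66.6 CPM. In all of these the 2 libraries at 8 h lay well above those at 0 h. Next by size came Mrpl50 (log2 1.75), Mrps22 (1.72), Mrps28 (1.69), Mrps18b (1.68), Mrps7 (1.66), which lies in the head of the small subunit, and Mrpl15 (1.64). The 9 genes after Mrps6 each had an adjusted p of at most 3.84e-07 (edgeR).

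The falls were Mrpl58 and Mrpl4. Mrpl58, a peptidyl-tRNA hydrolase built into the large subunit, measured 51.0 and 53.0 CPM at 0 h and 34.6 and 30.9 CPM at 8 h (log2 -0.67 ± 0.13, edgeR adjusted p = 0.000289). Mrpl4, whose bacterial relative lines the exit tunnel, measured 49.3 and 49.8 CPM at 0 h and 35.9 and 35.4 CPM at 8 h (log2 -0.47 ± 0.12). Neither gene's groups overlapped. No other tested member passed the threshold downward, and 11 passed in neither direction.

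**Figure D1:**
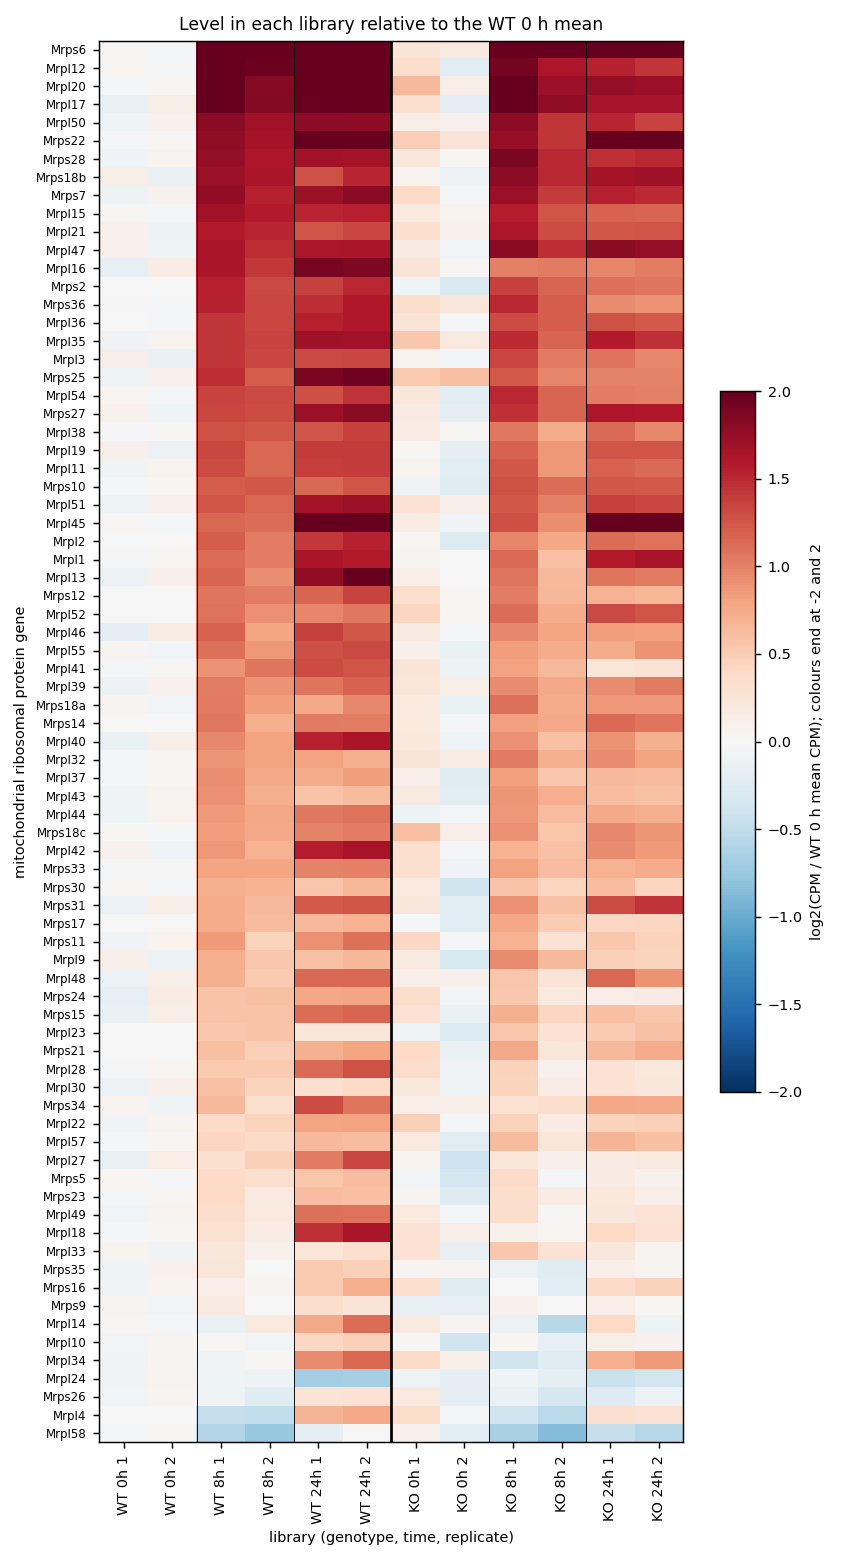
Levels of the 77 detected members (rows, ordered by the WT change from 0 to 8 h) in the 12 libraries (columns), as log2 of CPM over the WT 0 h mean, with colours ending at -2 and 2. Most rows turn red at 8 h in both genotypes, with Mrps6 at the top and Mrpl58 at the foot, and rows such as Mrpl18, Mrpl27 and Mrpl41 are red in WT at 24 h and paler in KO at 24 h.

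Between 8 and 24 h the WT rise was smaller and reached fewer members. The count was 28 higher and 3 lower, beside 24% and 19.3% of all tested genes, with a median log2 change of 0.22 against 0.00. Summed levels at 24 h were 4677.7 and 4922.3 CPM, 2.12 times the mean at 0 h. Leaving out the WT 8 h library numbered 2 cut the count of called members from 31 to 18, 16 of them higher. Of 9 tested small-subunit members without a bacterial counterpart, 8 were higher, against 2 of 16 with one. In the large subunit the counts were 7 of 19 and 11 of 29. No test of that difference was made.

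Mrpl18, a protein of the central protuberance, led this later rise. It measured 37.6 and 33.6 CPM in WT at 8 h and 83.3 and 94.5 CPM at 24 h (log2 1.32 ± 0.11, edgeR adjusted p = 2.07e-07), after a change of 0.23 over the first 8 h that did not pass the threshold (adjusted p = 0.0833). Mrpl4 turned from its early fall to 79.0 and 84.1 CPM (log2 1.19), so at 24 h it lay above its 0 h libraries. Mrpl45, which holds the ribosome at the inner membrane beside the tunnel exit, went from 57.7 and 56.3 CPM to 115.1 and 133.4 CPM (log2 1.12). Mrpl34, at 19.6 and 21.04 CPM at 8 h, reached 39.9 and 46.1 CPM (log2 1.08). Smaller rises were those of Mrpl14 (0.91), Mrpl13 (0.85), Mrpl42 (0.82), Mrpl49 (0.82), Mrpl27 (0.79) and Mrpl40 (0.71). Down from 8 h went Mrps6 (-0.67), Mrpl24 (-0.58) and Mrpl23 (-0.31), whose call was lost on leaving out any one of the 4 libraries. Of these, Mrpl23 and Mrpl24 are proteins of the tunnel exit.

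In KO cells the first 8 h brought a rise of the same kind. Of 77 members 54 were higher and 3 lower, beside 28.6% and 32.9% of all tested genes, with a median log2 change of 0.70 against -0.10. Summed levels went from 2575.8 and 2116.5 CPM to 4155.2 and 3440.4 CPM. Mrps6 (log2 2.73), Mrpl17 (1.85), Mrpl12 (1.68), Mrps18b (1.67) and Mrpl47 (1.59) rose most, and Mrpl58 (-0.69), Mrpl4 (-0.65) and Mrpl34 (-0.57) fell. The call of Mrpl34 was lost without the KO libraries numbered 1 (-0.31). Whether the KO effect at 8 h differed from that at 0 h was tested gene by gene. No member passed higher and 1 passed lower, beside 0.261% and 0.733% of all tested genes. In that edgeR test 0 members had an unadjusted p under 0.05 upward and 9 downward, beside 837 and 969 of all 15679 genes. DESeq2 called 0 and 1 members.

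From 8 to 24 h KO cells showed little further change in the members. Only 10 of 77 were higher and 4 lower, beside 18.9% and 15.6% of all tested genes, and the median log2 change was 0.03. The summed level was 3966.7 and 3851.2 CPM at 24 h, a ratio of 1.03 to the 8 h mean, where the WT ratio was 1.17. Leaving out the KO 24 h library numbered 1 or 2 left 8 or 9 called. Without the KO libraries numbered 1 the split was 11 higher and 1 lower, and without those numbered 2 it was 5 higher and 13 lower. Members that rose were led by Mrpl45 (56.2 to 134.8 CPM in means, log2 1.26 ± 0.12), Mrpl34 (1.11), Mrpl4 (0.77), Mrpl1 (0.73) and Mrpl48 (0.62). Mrps6 (-0.62), Mrpl41 (-0.46), Mrps36 (-0.45) and Mrpl24 (-0.27) fell, and the calls of all 4 were lost without the KO 8 h library numbered 1.

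**Figure D2:**
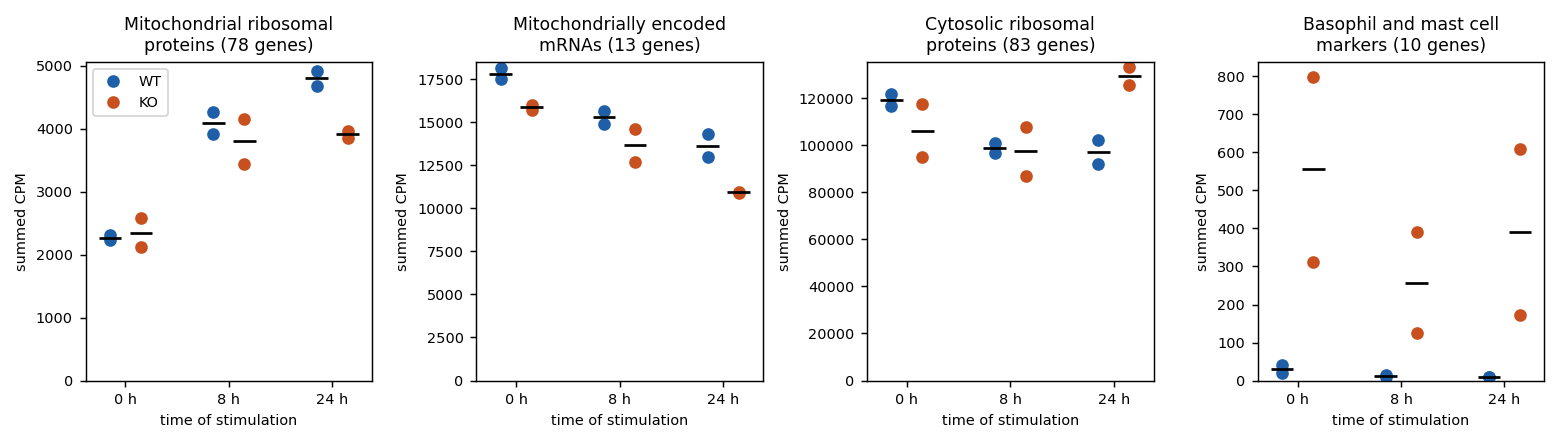
Summed CPM per library (points) and group mean (bars) at 0, 8 and 24 h for the mitochondrial ribosomal proteins, the mitochondrially encoded mRNAs, the cytosolic ribosomal proteins and the basophil and mast cell markers, WT in blue and KO in orange. The members' sum is lower in both KO libraries at 24 h (3966.7 and 3851.2 CPM) than in both WT libraries (4677.7 and 4922.3 CPM), while the cytosolic ribosomal proteins' sum is higher in KO.

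Before stimulation the genotypes differed little in the members. At 0 h, 1 member was higher in KO and 0 were lower, beside 4.63% and 1.07% of all tested genes. The median log2 difference was 0.09. The edgeR test gave 5 members an unadjusted p under 0.05 upward and 0 downward, beside 1613 and 1131 of all 15679 genes. DESeq2 called 1 and 0 members. The member called was Mrps25, a small-subunit protein without a bacterial counterpart, at 19.2 and 20.2 CPM in KO and 12.5 and 14.1 CPM in WT (log2 0.57 ± 0.13, edgeR adjusted p = 0.0185). Its call was lost without any one of the WT 0 h libraries or the KO 0 h library numbered 2. Without the 3 KO libraries numbered 2, 11 members were higher at 0 h.

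At 8 h, 0 members were higher in KO and 1 was lower, beside 1.9% and 0.746% of all tested genes, with a median of -0.11. In edgeR 0 members had an unadjusted p under 0.05 upward and 4 downward, beside 1274 and 980 of all 15679 genes. DESeq2 called 0 and 1 members. The lower member was Mrpl16, whose bacterial relative lies near the site where aminoacyl-tRNA enters, at 31.5 and 32.2 CPM in KO and 48.5 and 41.9 CPM in WT (log2 -0.51 ± 0.12, edgeR adjusted p = 0.041). That call was lost on leaving out any one of the 4 libraries compared. Without the KO libraries numbered 1, 7 members were lower, and without those numbered 2, 0 were.

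At 24 h many mitochondrial ribosomal protein mRNAs were lower in KO cells. Of 77 tested members, 36 (46.8%) were lower and 2 higher, beside 20.7% and 17.9% of all tested genes. The median log2 difference was -0.31 for members and 0.02 for all tested genes. The summed level in KO was 0.814 of that in WT. Leaving out any one library of the comparison lowered the count to between 17 and 22, all of them lower in KO. Counts were 22 and 20 without the WT 24 h library numbered 1 and 2, and 19 and 17 without the KO 24 h library numbered 1 and 2. Without the KO libraries numbered 2, 34 were lower and 1 higher, and without those numbered 1, 37 and 2.

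Both subunits held lower members. They were 11 of 26 in the small subunit (median log2 -0.24) and 24 of 50 tested in the large (median -0.33), where both higher members also lay. Of members with a bacterial counterpart 20 of 45 were lower, and of those without one 14 of 28 tested. All these counts stand beside 20.7% lower and 17.9% higher among all tested genes. The sizes spread from -1.21 for Mrpl18 to 0.31 for Mrpl23.

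The largest difference was that of Mrpl18 (GRCm38, chr17:12911349-12916345, minus strand). It measured 83.3 and 94.5 CPM in WT at 24 h and 40.0 and 37.0 CPM in KO, a log2 difference of -1.21 ± 0.11 (edgeR adjusted p = 7e-07) and 2.31-fold lower. At 0 h its KO libraries had 37.0 and 32.7 CPM and its WT libraries 29.4 and 31.2 CPM. The late WT rise of this gene thus had no counterpart of that size in KO, where the change from 8 to 24 h was 0.29 ± 0.11 (adjusted p = 0.0561). The difference between the 24 h and the 8 h KO effect was -1.03 ± 0.15 (edgeR adjusted p = 0.000365).

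Mrpl27 (chr11:94653767-94660089, plus strand), whose bacterial relative reaches into the peptidyl transferase centre, measured 34.2 and 42.0 CPM in WT and 18.7 and 18.8 CPM in KO at 24 h. It was 2.03-fold lower (log2 -1.02 ± 0.16, edgeR adjusted p = 0.000157). Mrpl41 (chr2:24974117-24975098, minus strand), a large-subunit protein without a bacterial counterpart, measured 51.7 and 50.2 CPM in WT and 25 and 25.6 CPM in KO, 2.01-fold lower. In KO it had fallen from 36.7 and 33.1 CPM at 8 h. Mrpl28 (chr17:26123500-26126613, plus strand), with a bacterial counterpart, measured 75.2 and 82.7 CPM in WT and 41.7 and 39.7 CPM in KO. For all 3 genes the KO libraries at 24 h lay below both WT libraries of that time.

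Mrps25 (chr6:92169525-92184033, minus strand) changed side over time. It was the one member higher in KO at 0 h, and at 24 h it measured 26.4 and 26.6 CPM in KO against 48.9 and 51.0 CPM in WT (log2 -0.91 ± 0.12). Its KO effect fell from 0 to 8 h by 0.81 ± 0.18 on the log2 scale (edgeR adjusted p = 0.0473) and from 8 to 24 h by 0.67 ± 0.17 (adjusted p = 0.0173). The first of these calls was lost when any one of the 8 libraries was left out other than KO 8 h numbered 1. Mrpl16, lower by 8 h, stood at 30.9 and 32.1 CPM in KO at 24 h against 58.5 and 57.1 CPM in WT (log2 -0.87 ± 0.12).

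Other large differences at 24 h were those of Mrpl13 (89.0 and 104.9 CPM in WT, 54.5 and 53.3 CPM in KO), Mrpl49 (65.5 and 65.1 against 36.1 and 37.0 CPM) and Mrpl12 (73.8 and 82.8 against 46.9 and 43.2 CPM). Mrpl40 measured 60.1 and 63.9 CPM in WT and 38.0 and 33.5 CPM in KO. Mrpl42 measured 98.9 and 105.0 CPM in WT and 64.0 and 60.5 CPM in KO. Mrpl14, the lowest of these genes, measured 19.9 and 25.3 CPM in WT and 15.4 and 10.9 CPM in KO. These 6 genes lay between 0.71 and 0.85 lower on the log2 scale, and their genotypes did not overlap. Members here and above were named for large called changes. With 2 libraries per group, that choice makes a lack of overlap likely, so it adds no support of its own. The share of all tested genes without overlap was not counted. Of the 12 named members lower at 24 h, 11 stayed under the threshold in each of 12 alternatives, and Mrpl14 lost its call when the WT or the KO library numbered 2 was left out.

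The 2 members higher in KO at 24 h were Mrpl23 and Mrpl24, both proteins at the rim of the exit tunnel. Mrpl23 measured 46.0 and 47.9 CPM in KO and 38.0 and 37.8 CPM in WT (log2 0.31 ± 0.11, edgeR adjusted p = 0.0359). Mrpl24 measured 79.8 and 84.5 CPM in KO and 66.7 and 68.7 CPM in WT (log2 0.28 ± 0.09, adjusted p = 0.0214). Both differences passed narrowly, and leaving out any one of the 4 libraries ended both calls, as did dropping the filter on low counts. Mrpl45, their neighbour at the tunnel exit, measured 142.7 and 126.9 CPM in KO and 115.1 and 133.4 CPM in WT, overlapping groups with a difference of 0.12 ± 0.12.

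**Figure D3:**
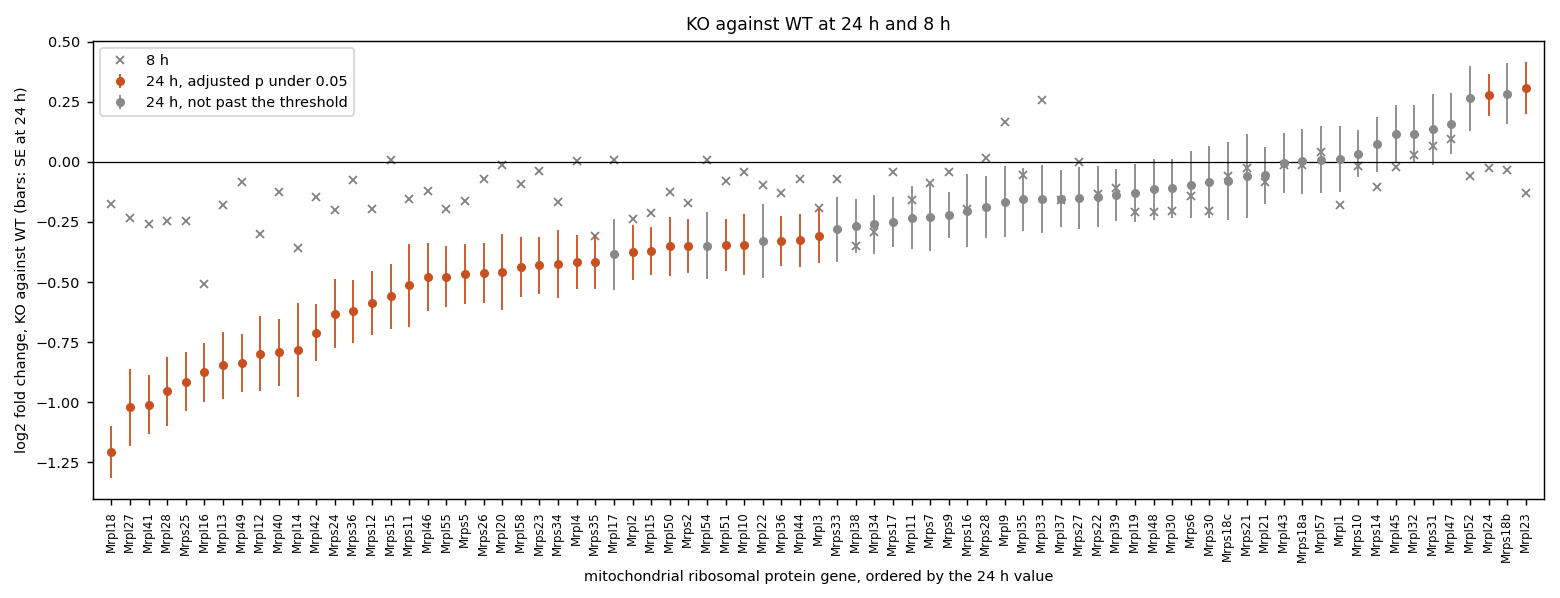
The log2 difference between KO and WT for each of the 77 tested members at 24 h (circles with standard error, orange where the adjusted p is under 0.05) and at 8 h (grey crosses), ordered by the 24 h value. The 24 h values run from -1.21 for Mrpl18 to 0.31 for Mrpl23, and most crosses on the left lie nearer to 0 than the circles.

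Members with particular roles varied. Among the stalk proteins, Mrpl12 (-0.80) and Mrpl10 (-0.34, edgeR adjusted p = 0.042) were lower, and Mrpl11 gave -0.23 ± 0.13 (adjusted p = 0.18). The 3 Mrps18 paralogs, of which Mrps18b and Mrps18c belong to the small subunit, gave 0.00 ± 0.14 for Mrps18a, 0.28 ± 0.13 for Mrps18b and -0.08 ± 0.16 for Mrps18c. None of the 3 passed the threshold. Mrps30, a large-subunit protein, gave -0.08 ± 0.15. Mrps36, the dehydrogenase component, measured 19.1 and 18.5 CPM in KO and 27.6 and 30.3 CPM in WT (-0.62 ± 0.13, adjusted p = 0.00176), and so was lower as well.

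The test of whether the KO effect at 24 h differed from that at 8 h called 9 members lower and 0 higher, beside 8.96% and 5.49% of all tested genes. The members' share lower was 11.7%, near that of all tested genes, so this count alone does not set the members apart. In edgeR 2 members had an unadjusted p under 0.05 upward and 15 downward, beside 1900 and 2467 of all 15679 genes. DESeq2 called 0 and 10 members. Besides Mrpl18 the 9 members called by edgeR were Mrpl27 (-0.79), Mrpl49 (-0.75), Mrpl41 (-0.75), Mrpl28 (-0.71), Mrps25 (-0.67), Mrpl13 (-0.67), Mrpl40 (-0.67) and Mrpl42 (-0.56). In 7 of the 8 fits without one library the count was between 2 and 5, in the other it was 11, and without the 3 KO libraries numbered 2 it was 22. Without those numbered 1 it was 6 lower and 2 higher.

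**Figure D4:**
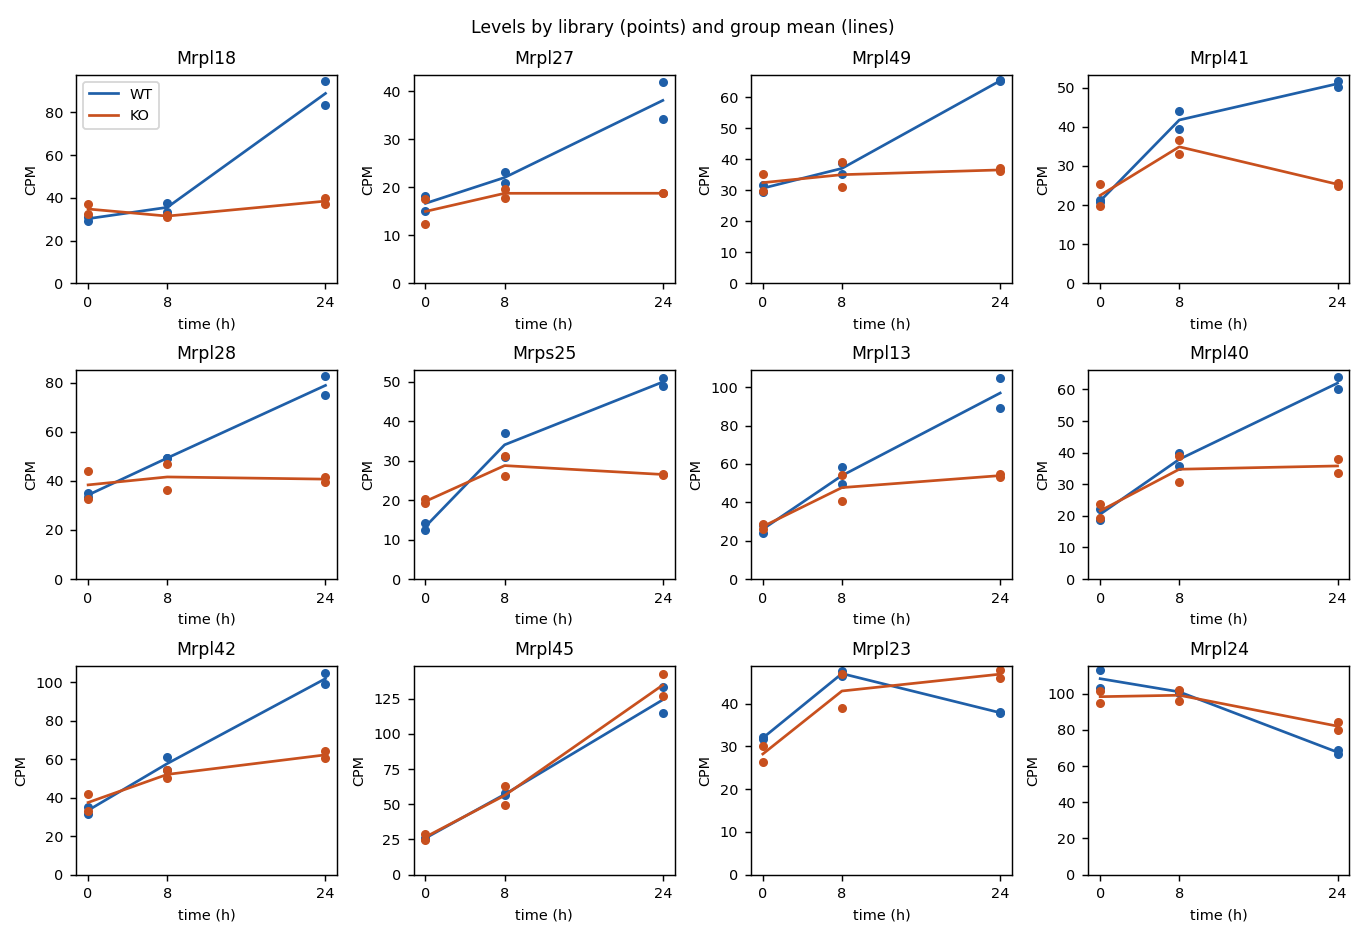
CPM in each library (points) and group means (lines) at 0, 8 and 24 h for the 9 members whose KO effect differed between 8 and 24 h, and for Mrpl45, Mrpl23 and Mrpl24. In the 9 genes the WT line climbs from 8 to 24 h while the KO line stays nearly level or falls, as in Mrpl41, or climbs less, as in Mrpl42; Mrpl45 climbs in both genotypes.

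Many members share exons with another annotated gene, and the sources used here do not state whether the counting used strand, although the library kit is stranded per the labels. Of the 78 members, 33 overlap an exon of another gene on either strand. Among the 45 without such overlap, 18 (40%) were lower at 24 h and 1 higher, with a median of -0.27. Of 32 tested members with overlap, 18 (56.2%) were lower and 1 higher, with a median of -0.33. Among all tested genes 20.7% were lower and 17.9% higher. Mrpl41, Mrpl28, Mrpl16, Mrpl40 and Mrpl42 overlap no other gene. The partners of others moved with or against them. Eme1, opposite Mrpl27, was lower in KO (log2 -3.68 ± 0.35), as were Mtbp opposite Mrpl13 (-1.55 ± 0.12) and Tcp1 opposite Mrpl18 (-0.53 ± 0.10). Tmem63b opposite Mrpl14 (1.97 ± 0.18) and Syvn1 opposite Mrpl49 (0.37 ± 0.09) were higher. The values of these overlapping members are uncertain to that extent.

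Start sites of 18 members (23.1%) lie within 1000 bp of the start of a protein-coding gene that runs the other way without crossing it. The share was 6.79% of all protein-coding genes in the table. Pairs whose starts cross were not counted, such as Mrpl46 with Mrps11, both lower in KO at 24 h (-0.48 and -0.51). In 17 of the 18 pairs counted, the neighbour was tested at 24 h. Among all tested genes 20.7% were lower in KO at that time and 17.9% higher. How many pairs would share a call at those rates was not worked out. Both genes were lower in KO in 2 pairs, Mrpl40 with Hira (175 bp apart, Hira -0.60) and Mrpl51 with Ncapd2 (100 bp, Ncapd2 -2.58). In 4 pairs the member was lower and its neighbour higher. These were Mrpl2 with Klc4 (1.31), Mrpl49 with Fau (0.56), Mrpl50 with Zfp189 (0.996) and Mrps34 with Eme2 (0.57). Fau encodes a cytosolic ribosomal protein, and its start lies 59 bp from that of Mrpl49. In 3 pairs the neighbour alone was lower, as for Ska3 (-2.85) beside Mrpl57 (0.01). Counting each member once over its windows, the ETS motif was in 8 of the 31 members with a window that were lower in KO at 24 h (25.8%) and in 17 of the 37 other tested members with one (45.9%). For NRF1 the counts were 5 of 31 and 11 of 37, for YY1 4 of 31 and 4 of 37, and for the E-box 3 of 31 and 2 of 37. These differences were not tested.

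Subunits of the mitochondrial ribosome that carry other symbols were also measured. Of these 5, Dap3, a small-subunit GTP-binding protein, was lower in KO at 24 h, at 81.1 and 78.7 CPM against 120.7 and 133.4 CPM in WT (log2 -0.67 ± 0.09, edgeR adjusted p = 3.25e-05). Ptcd3 (-0.17), Aurkaip1 (-0.18), Gadd45gip1 (-0.02) and Chchd1 (0.00) did not pass the threshold. The share lower was thus 20%, beside 20.7% of all tested genes.

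In each list of genes that build or serve the mitochondrial ribosome, more genes were called lower than higher in KO at 24 h. The shares lower were 35.7%, 37.5%, 45% and 30.8%, in the order below. Among all tested genes 20.7% were lower and 17.9% higher. A lower level in KO at 24 h was thus not particular to the members. Of 28 assembly and rRNA modification genes 10 were lower and 1 higher. Lower were the methyltransferase gene Trmt2b (-1.06), the GTPase gene Gtpbp10 (-0.83) and Fastkd2 (-0.52), and Mterf3 was higher (0.47). Of 16 tested translation factors 6 were lower, among them the elongation factor genes Gfm1 (-0.74), Tufm (-0.69) and Tsfm (-0.65), and 1, the methionine aminopeptidase gene Metap1d (0.30), was higher. Of 20 tRNA synthetase and amidotransferase genes 9 were lower and 1 higher. Iars2 was among the lower (-0.51), and Lars2 was the higher one (0.68). Of 26 genes of mitochondrial transcription, RNA processing and DNA copying 8 were lower and 0 higher, among them Fastkd3 (-1.06), Grsf1 (-0.64) and Tfam (-0.61), which packages mitochondrial DNA.

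In CPM, the mRNAs that mitochondrial ribosomes translate did not rise with the members, and their amount per cell was not tested. In WT they summed to 17503.0 and 18148.7 CPM at 0 h, and to 12954.2 and 14306.3 CPM at 24 h. In KO at 24 h they summed to 10965.8 and 10885.9 CPM, below both WT libraries. The KO sums lay below both WT libraries at the earlier times as well. At 0 h they were 16028.1 and 15703.1 CPM in KO. At 8 h they were 14616.3 and 12706.6 CPM in KO against 15682.7 and 14882.5 CPM in WT. At 0 h and at 8 h, 0 of the 12 tested were called between the genotypes. Of 12 tested, 4 were lower in KO at 24 h and 0 higher, beside 20.7% and 17.9% of all tested genes. The 4 were mt-Nd1 (-0.65), mt-Nd2 (-0.51), mt-Nd4 (-0.36) and mt-Nd5 (-0.29). The small-subunit rRNA mt-Rnr1 was lower too (-0.81), in libraries depleted of rRNA.

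Cytosolic ribosomal protein mRNAs differed from the members in direction. Over the first 8 h in WT, 7 of 80 tested were higher and 35 lower (median -0.28), where the members' median was 0.89. Among all tested genes 28.3% were higher and 33.6% lower (median -0.15). At 24 h, 54 of 80 were higher in KO and 1 lower (median 0.41), beside 17.9% and 20.7% of all tested genes. The sum of the cytosolic ribosomal proteins was 133099.9 and 125411.6 CPM in KO against 91936.1 and 102373.3 CPM in WT. The share of libraries that these genes take up therefore differed between genotypes, and CPM of other genes is relative to it. With RLE size factors in place of TMM factors 38 members were lower and 1 higher at 24 h, and the median of all genes moved by at most 0.08 in any comparison.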

How the data were processed

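Raw counts per gene were deposited by the authors as 1 table with a column for each of the 12 libraries. Per the submitters' processing notes, the mm10 build, STAR 2.7.1a and fastp 0.12.4 were used. Which program counted reads, on which annotation, and whether it used strand or molecular identifiers was not given in the sources used here. Symbols, exons and coordinates are those of GENCODE M21 (GRCm38), which matched 54079 of 54232 rows.

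Low counts were removed with filterByExpr, given the groups, at a minimum count of 10 and a minimum total of 15. Group means were then fitted over all 12 libraries by robust quasi-likelihood with TMM factors (edgeR 4.0.16 under R 4.3.3), leaving 6 residual degrees of freedom. Tests were two-sided, and p-values were Benjamini-Hochberg adjusted over 15679 genes, with 0.05 as the threshold. Depth limits precision through counting error, and 2 libraries per group limit the estimate of the spread. Differences of the KO effect are interaction contrasts in the same fit.

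The alternatives tried were DESeq2 1.42.0, RLE size factors, a minimum of 1 CPM in 2 libraries, no filter at all, fits on the groups compared only, a replicate block, and leaving out single libraries or the KO libraries of either number. Where this leaves a group with 1 library, that library is assumed to vary like those of the other groups. Counts of members called under an alternative are given without the share of all genes under the same fit. They do not show whether members moved apart from other genes. Named members are those past the threshold with the largest changes: up to 12 per direction for KO against WT, 10 for WT over time, and 5 for KO over time and for the differences of the KO effect. To these were added members called against the majority, the 5 highest and 5 lowest per length, the Mrps18 paralogs, Mrps30, Mrps36, the stalk proteins, and up to 3 genes with the smallest p of each accompanying list. Some others are named as examples, chosen after their values were seen. A gene that the rule names is not reported here. The members and lists were chosen with earlier results of these data known.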

Additional observations from a re-analysis of the deposited data

Results flagged for a closer look

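Tests of the difference itself called the KO effect on 1 member as changed from 0 to 8 h, beside 0.733% of all tested genes lower. From 8 to 24 h they called 9 members lower (11.7%), a share near the 8.96% of all tested genes. The 6 cases given here are that 1 member and the 5 of the 9 with the largest change. For Mrps25 the log2 KO effect at 8 h was lower than that at 0 h by 0.81, a change of -0.81 from 0.57 at 0 h to -0.24 at 8 h. From 8 to 24 h the KO effect changed by -1.03 for Mrpl18, -0.79 for Mrpl27, -0.75 for Mrpl49, -0.75 for Mrpl41 and -0.71 for Mrpl28. Of the 5 members named for 8 to 24 h, Mrpl18 kept its call under each of 16 alternatives. The other 4 did not. The calls of Mrpl49 and Mrpl41 were lost in 1 fit each, without WT 8 h numbered 2 and numbered 1 respectively. Those of Mrpl27 and Mrpl28 were lost in 7 fits each, with values from -0.87 to -0.63 and from -0.77 to -0.51. The call of Mrps25 from 0 to 8 h was lost in 9 of its 16 alternatives.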

How the results depend on the processing

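No named member changed direction under any alternative run, although the split of KO calls from 8 to 24 h turned from 10 higher and 4 lower to 5 and 13 without the KO libraries numbered 2. Over the named members' values, 672 kept their call and 70 lost it. Called members numbered, on leaving out single libraries, 58 to 62 for WT at 8 h against 0 h, 18 to 30 for WT at 24 h against 8 h, 54 to 66 for KO at 8 h against 0 h, and 8 to 16 for KO at 24 h against 8 h. For KO against WT the ranges were 0 to 2 at 0 h, 0 to 1 at 8 h and 17 to 22 at 24 h; for the differences of the KO effect 0 to 1 (8 h against 0 h) and 2 to 11 (24 h against 8 h). With no filter, 2 members were called between the genotypes at 0 h, and 2 in the difference from 0 to 8 h. With only the groups compared in the fit, 0 were called in KO against WT at 0 h and 8 h and in that difference. Without the KO libraries numbered 2, the counts were 11 at 0 h, 0 at 8 h, 0 for the difference from 0 to 8 h and 22 for that from 8 to 24 h, and without those numbered 1, 7 at 8 h. RLE factors moved the summed WT 0 h mean from 2269.7 to 2218.0 CPM. The cause was not tested, except that fits on fewer libraries or groups have fewer degrees of freedom. No share of all genes under the same fit stands beside these counts.

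The replicate numbers were not taken to pair the libraries, since no label says so and not every correlation was over 0.1. The column names do carry the same number at each time, such as WT1 and KO1, without saying what it stands for. A pairing over time within a genotype therefore stays possible. The 3 pairs of groups within WT gave correlations of 0.22, 0.09 and 0.11. Deviations of same-numbered libraries correlated between -0.10 and 0.29 over 15 pairs of groups, over 0.1 in 8 of them; the 3 pairs within KO gave 0.29, 0.11 and 0.22, and the members' sum was higher in the KO library numbered 1 at each time. With the replicate number as a block, 40 members were called between the genotypes at 24 h, against 38 without it, and 11 against 9 for the difference of the KO effect from 8 to 24 h. Other counts under the block were 66, 32, 58, 16, 1, 1 and 1, in the order above. This block joins WT and KO libraries of the same number, and a block within each genotype was not fitted.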
